A study of Danio rerio with 4 samples.

Results

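The ddx39 helicase genes of zebrafish were followed across 4 sequencing libraries of whole embryos. They were chosen by annotation, as the genes with the symbol DDX39A (ENSDARG00000015111 and ENSDARG00000006225) and the paralog ddx39b (ENSDARG00000036069). These are 3 of the 31953 gene rows in the count files, and all 3 passed the expression filter in each pair of libraries compared. Embryos were collected at 24 h post fertilisation. A wild-type and a ddx39a mutant library were made by RNA-seq, which counts the transcripts of the whole embryo. The other pair came from RIP-seq, which pulls a tagged protein out of a lysate and sequences the RNA that comes with it, and carries the labels wild type and ddx39a mutant. For both RIP-seq libraries the protocol describes Flag-tagged ddx39a mRNA injected at the one-cell stage into mutant embryos and recovery with anti-Flag beads. The label wild type of 1 of them therefore goes against its protocol, each RIP-seq library goes here under its label, and none is treated as a mock. The sources used here give neither the mutant allele nor the number of embryos per library. Each group held 1 library, so there was no replicate check. Intervals are 95% exact intervals that cover counting error only, and values compare libraries and not genotypes.

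DDX39A and DDX39B are closely related RNA helicases of the DEAD-box family, enzymes that use ATP to remodel RNA and RNA-protein complexes. In human cells and in yeast their relatives act with the THO complex in TREX, the assembly that couples transcription and splicing to export of mRNA from the nucleus. They help to load the adaptor ALYREF, which in turn hands the mRNA to the export receptor NXF1. DDX39B is also known in human cells for its part in spliceosome assembly, where it works with U2AF2 at the branch site. Which of the DDX39A genes carries the mutation is not stated in the labels. No protein or transcript sequence of these genes was at hand, so sequence identity and level per transcript length were not analysed here, and counts are not compared between genes as levels.

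The RNA-seq libraries held 9922182 counts (wild type) and 9533101 counts (mutant) in genes, and the RIP-seq libraries 1966053 (wild-type label) and 2246938 (mutant label). Of the unique alignments, 53.8% (wild type) and 54.0% (mutant) in RNA-seq fell in no gene and are not among these counts. The share was 82.1% (wild-type label) and 79.2% (mutant label) in RIP-seq. In RIP-seq, 91.8% and 89.5% of the alignment records were not unique and were left out by the counting, against 11.2% and 8.42% in RNA-seq. Near-identical stretches shared by the ddx39 genes would be left out in the same way, so the value of each single copy is uncertain to that extent. Markers of 7 tissues of the embryo that matched a gene ID all had counts in both RNA-seq libraries (41 genes, none at 0). The lowest included the lens gene crygm2d10, with 2 counts in the mutant. Some planned markers without a matching symbol were looked up under a broader symbol, such as TNNT3 for tnnt3b and SLC4A1 for slc4a1a. Each gene ID with such a symbol counted as a marker. Other planned markers without a match, such as shha and pax6a, were not looked at.

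In RNA-seq, ENSDARG00000015111 was much lower in the mutant library, and the other ddx39 genes stayed close to their wild-type values. ENSDARG00000015111 had 3742 counts in wild type and 706 in the mutant. Scaled for library size and composition (TMM), this was 385 against 72.5 CPM (counts scaled to a common library size), a 5.31-fold lower value (4.90 to 5.76). The other DDX39A gene, ENSDARG00000006225, had 2242 and 2382 counts, or 231 and 245 CPM, a ratio of 1.06 (1.001 to 1.12). That interval lies just above equality. The gene ddx39b had 677 and 707 counts, or 69.7 and 72.6 CPM, a ratio of 1.04 (0.937 to 1.16). Thus 1 of the 3 genes was called, where a call needs a ratio of at least 2-fold with an interval that excludes equality. Over the 18800 genes compared, 2.16% were called higher and 2.6% lower. In bulk RNA of whole embryos, fewer cells that express a gene and less of its RNA per cell cannot be told apart.

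**Figure D1:**
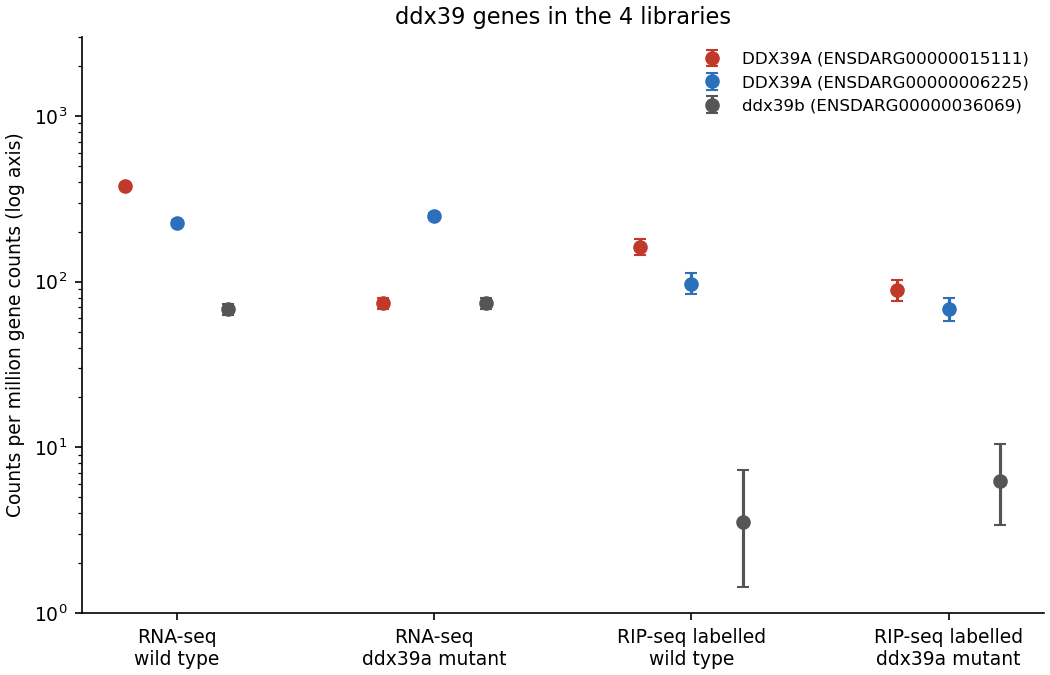
CPM of the total gene counts (log axis, not scaled by TMM) of the ddx39 genes in each of the 4 libraries, with 95% exact Poisson intervals. Points of 1 gene can be followed across libraries of 1 assay. ENSDARG00000015111 stands at 377 in wild-type and 74.1 in mutant RNA-seq, while ENSDARG00000006225 stands at 226 and 250.

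The drop of ENSDARG00000015111 stood out among genes with as many counts. Of the 18800 genes compared, 47 (0.25%) had a lower log2 ratio. Of the 6507 genes with at least 500 counts over the pair, 1 had a lower ratio, the globin gene HBE1, at 6.13-fold lower (5.31 to 7.10), which is named because its value was seen. ENSDARG00000006225 and ddx39b lay near the middle of all genes, with 61.7% and 58.8% of genes below them. Other scalings kept the value of ENSDARG00000015111 between 5.09-fold and 5.31-fold lower. They placed the ratio of ENSDARG00000006225 between 1.06 and 1.11 and that of ddx39b between 1.04 and 1.09. No scaling brought either paralog to a 2-fold change in the mutant library.

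**Figure D2:**
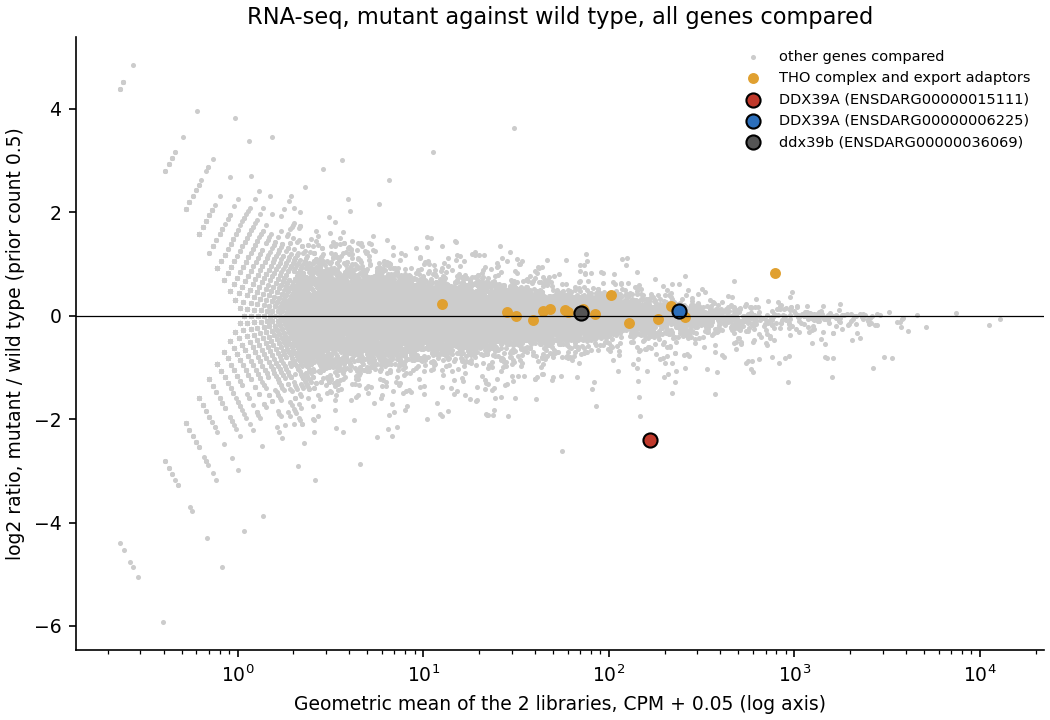
Each of the 18800 genes compared in RNA-seq is a point, at its geometric mean level over the 2 libraries (CPM + 0.05, log axis) and its log2 ratio of mutant to wild type. ENSDARG00000015111 lies at -2.41, below nearly all genes of its level, and ENSDARG00000006225 (0.09) and ddx39b (0.06) lie near 0, as do most genes of the THO complex and the export adaptors.

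The make-up of the ddx39 counts within a library does not depend on any scaling. In wild-type RNA-seq, ENSDARG00000015111 gave 56.2% of the 6661 counts of the 3 genes (exact interval 55.0 to 57.4%). ENSDARG00000006225 gave 33.7% (32.5 to 34.8%) and ddx39b gave 10.2% (9.45 to 10.9%). In mutant RNA-seq the share of ENSDARG00000015111 was 18.6% of 3795 counts (17.4 to 19.9%). ENSDARG00000006225 held 62.8% there (61.2 to 64.3%) and ddx39b 18.6% (17.4 to 19.9%). The order of the DDX39A genes in counts was therefore the opposite in the mutant library, and ENSDARG00000015111 and ddx39b had nearly equal counts in it. The summed counts of the 3 genes were 1.76-fold lower in the mutant (1.69 to 1.83) after TMM scaling.

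**Figure D3:**
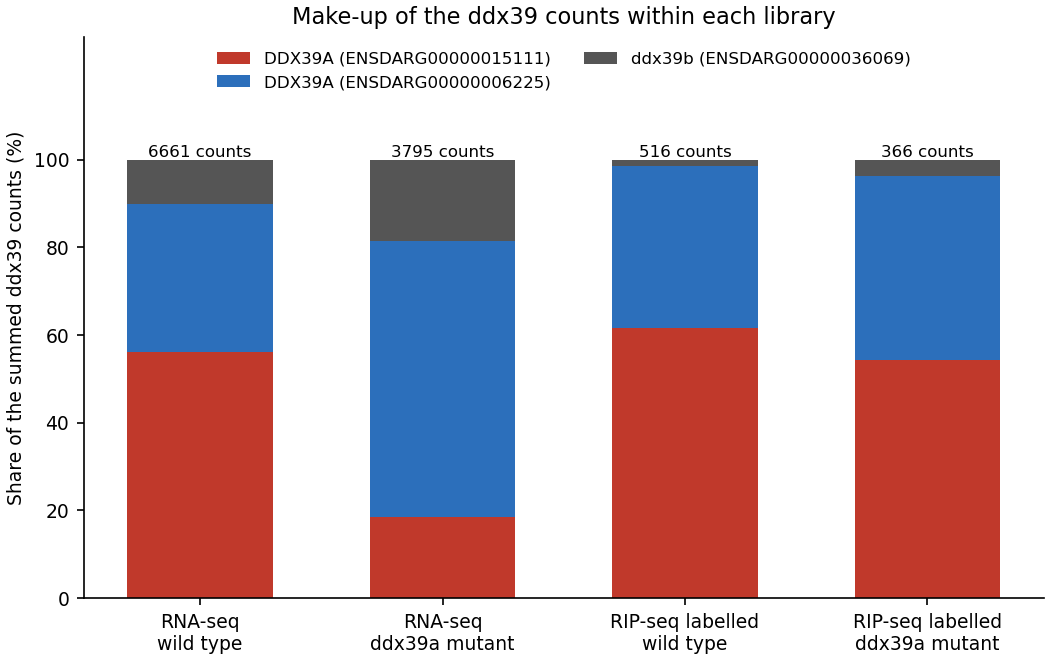
Bars show the share (%) of each ddx39 gene in the summed counts of the 3 genes, per library, with the sum above each bar. ENSDARG00000015111 holds over 50% in 3 of the libraries and 18.6% in mutant RNA-seq, and ddx39b is under 4% in both RIP-seq libraries.

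Other signals moved with the genotype label in RNA-seq. The marker lists were chosen with earlier results of these data known, so the calls in them are given as values only. Muscle markers were called lower for 6 of 8 genes, and their summed level went from 4882 to 2309 CPM of the total. All 5 lens markers were lower (155 against 63.1 CPM summed), as were 2 of 7 erythroid markers (1444 against 840 CPM). None of 4 neural, 6 notochord, 6 epidermis or 5 hatching gland markers was called. Over all genes compared, 2.16% were called higher and 2.6% lower. Summed levels were still lower in the mutant for notochord (2037 against 1368 CPM) and hatching gland markers (1521 against 1260 CPM). They were close for neural (500 against 499 CPM) and epidermis markers (17258 against 17566 CPM). Single genes differed more, with ratios from 0.519 (neurog1) to 1.09 (ELAVL3) among neural markers. Among epidermis markers they ran from 0.911 (krt8) to 1.59 (cyt1). Within the muscle and erythroid lists, MYOD1 (1.55) and the SLC4A1 gene ENSDARG00000024560 (1.34) had ratios above 1. The part of these tissues in the value of ENSDARG00000015111 was not tested.

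In RIP-seq, both DDX39A genes had fewer counts with the mutant label, and ddx39b had few counts. In the library labelled wild type ENSDARG00000015111 had 318 counts (167 CPM), and in that labelled mutant 199 (85.5 CPM), 1.96-fold lower (1.64 to 2.35). For ENSDARG00000006225 the counts were 191 and 153 (101 and 65.8 CPM), a 1.53-fold lower value (1.23 to 1.91). Only 7 and 14 counts fell on ddx39b, or 3.69 and 6.02 CPM, a ratio of 1.63 (0.616 to 4.78). No member was called, where 8.37% of 15762 genes were called higher and 5.3% lower (1319 and 835 genes). When the libraries were scaled by total counts without the 5 features leading in RIP-seq, ENSDARG00000015111 was called, at 2.28-fold lower (1.90 to 2.73), and the split of all calls was 1004 higher and 1333 lower. A 2-fold call for this gene therefore depended on the scaling.

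Over all 15762 genes, 2821 (17.9%) had a lower ratio in RIP-seq than ENSDARG00000015111. Of the 373 with at least 500 counts over the pair, 8 did, among them the troponin T gene tnnt2c (3.35-fold lower, 2.97 to 3.79) and the nucleolar helicase gene DDX21 (2.42-fold lower, 2.15 to 2.72). These examples were chosen after their values were seen. Muscle markers moved the same way here, with 4 of 8 called lower and a summed level of 372 against 146 CPM of the total. Erythroid markers did too, with 2 of 6 called lower and 145 against 60.5 CPM, and 1 epidermis marker (summed level 7679 against 5246 CPM) and 1 hatching gland marker (187 against 127 CPM) were called lower. None of the 4 neural or 5 notochord markers compared was called. The summed level was 107 against 89.9 CPM for neural markers, and higher with the mutant label for notochord markers (253 against 314 CPM). Over all genes compared, 8.37% were called higher and 5.3% lower. The lens markers together had 3.56 CPM with the wild-type label and no counts under the mutant label, where 3 counts would equal 1.34 CPM. The part of these tissues in the RIP-seq values was not tested. The counts of DDX39A genes in RIP-seq can include the injected Flag-tagged mRNA as well as the embryos' own, and how much it adds was not tested.

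RIP-seq against RNA-seq of the same label showed ddx39b apart from both DDX39A genes. With the wild-type label, the DDX39A genes had the same ratio within counting error, 1.53 for ENSDARG00000015111 (1.36 to 1.71) and 1.53 for ENSDARG00000006225 (1.31 to 1.78). The gene ddx39b was 5.38-fold lower in RIP-seq (2.6 to 13.4), and was the 1 member called, where 9.01% of 17412 genes were called higher and 14.1% lower. With the mutant label, ENSDARG00000015111 was 4.15-fold higher in RIP-seq (3.53 to 4.86). ENSDARG00000006225 stood at 0.945 (0.797 to 1.11), and ddx39b was 3.43-fold lower (2.03 to 6.31). The 4.15-fold value of ENSDARG00000015111 uses the same 706 mutant RNA-seq counts that gave its 5.31-fold lower value, so they are not separate results. Between the RIP-seq libraries this gene was 1.96-fold lower with the mutant label. Over 17711 genes compared with this label, 13.8% were called higher and 16.2% lower. The part of the injected Flag-tagged mRNA in the RIP-seq counts of the DDX39A genes, and so in these ratios, was not tested. Outside the 5 features leading in RIP-seq, the RIP-seq libraries held 480709 counts (wild-type label) and 685613 counts (mutant label), so the ratios of single genes between assays depend on how these features are treated.

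**Figure D4:**
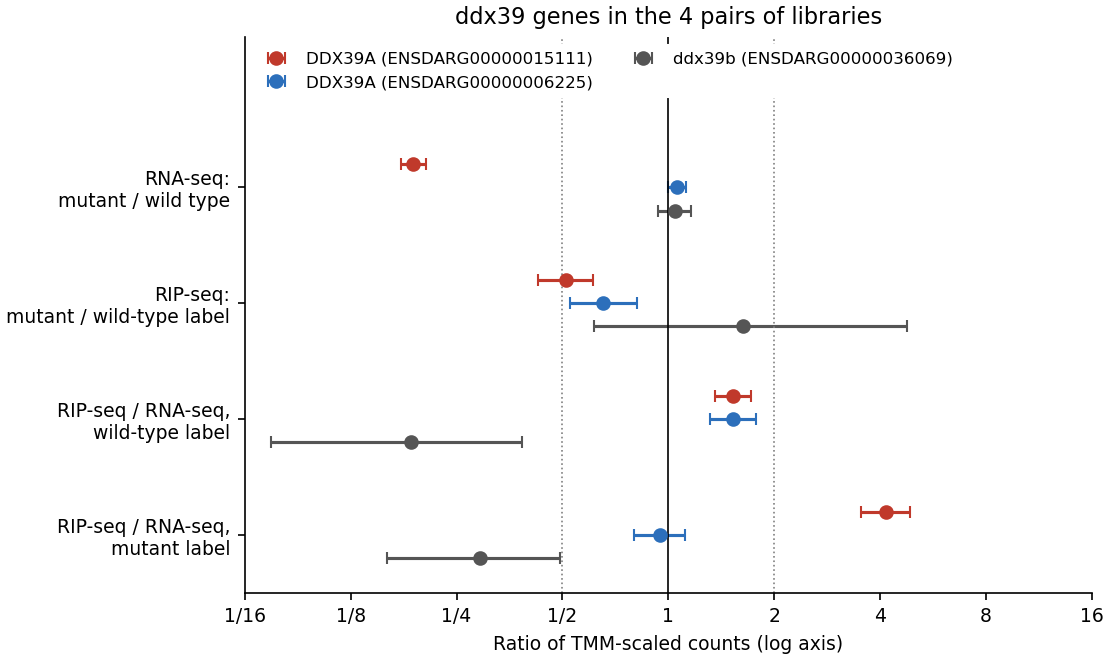
Ratios of TMM-scaled counts (log axis) of the ddx39 genes in the 4 pairs of libraries, with 95% exact intervals for counting error. Dotted lines mark 2-fold. ENSDARG00000015111 is at 0.188 in RNA-seq of mutant over wild type and at 4.15 in RIP-seq over RNA-seq with the mutant label, and ddx39b lies below 0.5 in both RIP-seq over RNA-seq pairs.

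These ratios between assays rest on the scaling. With total gene counts in place of TMM, the median log2 ratio of all genes moved from -0.24 to -2.11 with the wild-type label and from -0.25 to -2.10 with the mutant label. Both DDX39A genes were then 2.33-fold lower in RIP-seq with the wild-type label (2.08 to 2.62 for ENSDARG00000015111, 2.01 to 2.71 for ENSDARG00000006225). With the mutant label ENSDARG00000015111 had a ratio of 1.2 (1.02 to 1.40), and ENSDARG00000006225 was 3.67-fold lower (3.12 to 4.35). The split of all calls moved to 310 higher and 13429 lower with the wild-type label, against 1568 and 2450 with TMM, and to 500 and 12946 with the mutant label, against 2441 and 2875. For ddx39b the direction was the same, at 19.2-fold (9.25 to 47.8) and 11.9-fold lower (7.05 to 21.9).

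Comparing the ddx39 genes with each other within a library removes the scaling, and gene length cancels when such ratios are compared between libraries. ENSDARG00000015111 had 1.67 counts for each count of ENSDARG00000006225 in wild-type RNA-seq (1.58 to 1.76) and 1.66 in RIP-seq with the wild-type label (1.39 to 2.0). In mutant RNA-seq this ratio was 0.296 (0.272 to 0.322), and in RIP-seq with the mutant label it was 1.3 (1.05 to 1.62). Between the assays, the ratio therefore differed by 0.998-fold under the wild-type label (0.825 to 1.21) and by 4.39-fold under the mutant one (3.48 to 5.54). The RIP-seq library labelled mutant thus held the DDX39A genes in a proportion nearer to wild-type RNA-seq, from which it differed by 1.28-fold (1.03 to 1.60), than to mutant RNA-seq. That last comparison was added after the values were seen. Counts of DDX39A genes in RIP-seq can include the injected Flag-tagged mRNA, and its part in these proportions was not tested. Between the RIP-seq libraries the ratio was 1.28-fold lower with the mutant label, with an interval that includes equality (0.961 to 1.70).

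The same comparison set ddx39b apart. ENSDARG00000006225 had 3.31 counts for each count of ddx39b in wild-type RNA-seq (3.04 to 3.61) and 3.37 in mutant RNA-seq (3.10 to 3.67), so the proportion of these 2 genes did not differ beyond counting error (1.02-fold, 0.900 to 1.15). In RIP-seq the ratio was 27.3 under the wild-type label (13.0 to 68.8) and 10.9 under the mutant one (6.32 to 20.5). Relative to ENSDARG00000006225, ddx39b thus had an 8.24-fold smaller proportion in RIP-seq compared with RNA-seq under the wild-type label (3.89 to 20.9), and 3.24-fold smaller under the mutant label (1.86 to 6.11). Relative to ENSDARG00000015111, its proportion was smaller by 8.22-fold (3.92 to 20.7) and by 14.2-fold (8.17 to 26.7). The wide intervals come from its 7 and 14 counts. Both reference genes here are DDX39A genes, whose RIP-seq counts can include the injected Flag-tagged mRNA. Its part in these proportions was not tested.

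The order of the libraries for each gene depended in part on the scaling between assays. With TMM factors over all 4 libraries, ENSDARG00000015111 was highest in RIP-seq with the wild-type label (314 CPM), followed by wild-type RNA-seq (206), RIP-seq with the mutant label (160) and mutant RNA-seq (38.8). With total counts, wild-type RNA-seq came first (377 CPM), RIP-seq with the wild-type label second (162, interval 144 to 181), then RIP-seq with the mutant label (88.6, 76.7 to 102) and mutant RNA-seq (74.1, 68.7 to 79.7). Mutant RNA-seq was lowest in both orders, although the intervals of the lowest 2 libraries overlapped with total counts. For ENSDARG00000006225, the TMM values were 189 CPM in RIP-seq with the wild-type label and 123, 131 and 123 CPM in wild-type RNA-seq, mutant RNA-seq and RIP-seq with the mutant label. For ddx39b they were 37.2 and 38.8 CPM in wild-type and mutant RNA-seq, which did not differ beyond counting error, and 6.92 and 11.2 CPM in RIP-seq with the wild-type and mutant label.

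To set the members beside other genes, profiles of log2 scaled counts over the 4 libraries, centred on their mean, were compared by Euclidean distance among 4131 genes with at least 20 counts in every library. ENSDARG00000006225 had 835 genes within a distance of 0.5. The nearest with a gene name were MFN2, which acts in mitochondrial fusion (distance 0.047), the signalling adaptor SHC1 (0.054), the transcription factor MYCL (0.055) and SNRPD1, a core protein of spliceosomal snRNPs (0.056). The exact intervals of the RIP-seq counts of ENSDARG00000006225 (165 to 220 and 130 to 179) are wider than these distances. These 4 genes and their order are therefore not told apart from other genes near this profile. The profile of ddx39b had 16 genes within 0.5, but ddx39b itself, with 7 and 14 RIP-seq counts, is below the 20 counts asked of the genes compared. The exact intervals of those counts (2.81 to 14.4 and 7.65 to 23.5) are wider than such distances, so its nearest genes are not told apart from others. Nearest to it were an afp4 gene (ENSDARG00000095863, 0.14), the ferritin heavy chain gene fth1a (0.19), the antizyme gene OAZ1 (0.28) and another afp4 gene (ENSDARG00000041490, 0.31).

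ENSDARG00000015111 had no gene within 0.5. Its nearest were the cytoglobin gene CYGB at 0.99 (470 and 211 counts in wild-type and mutant RNA-seq, 61 and 27 in RIP-seq with those labels) and MYOM1, an M-band protein of the sarcomere, at 1.24 (789, 453, 78 and 72 counts). They were followed by tnnt2c at 1.27 (5365, 3107, 1012 and 370 counts) and the skeletal actin gene ACTA1 at 1.29 (2827, 1727, 313 and 302 counts). Each of these 4 had its lowest centred value in mutant RNA-seq, between -1.11 and -0.91, against -1.87 for ENSDARG00000015111. They were chosen as nearest to this profile, so a shared low point follows from the choice. The other members lay farther away, ENSDARG00000006225 at 2.07 and ddx39b at 4.02.

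**Figure D5:**
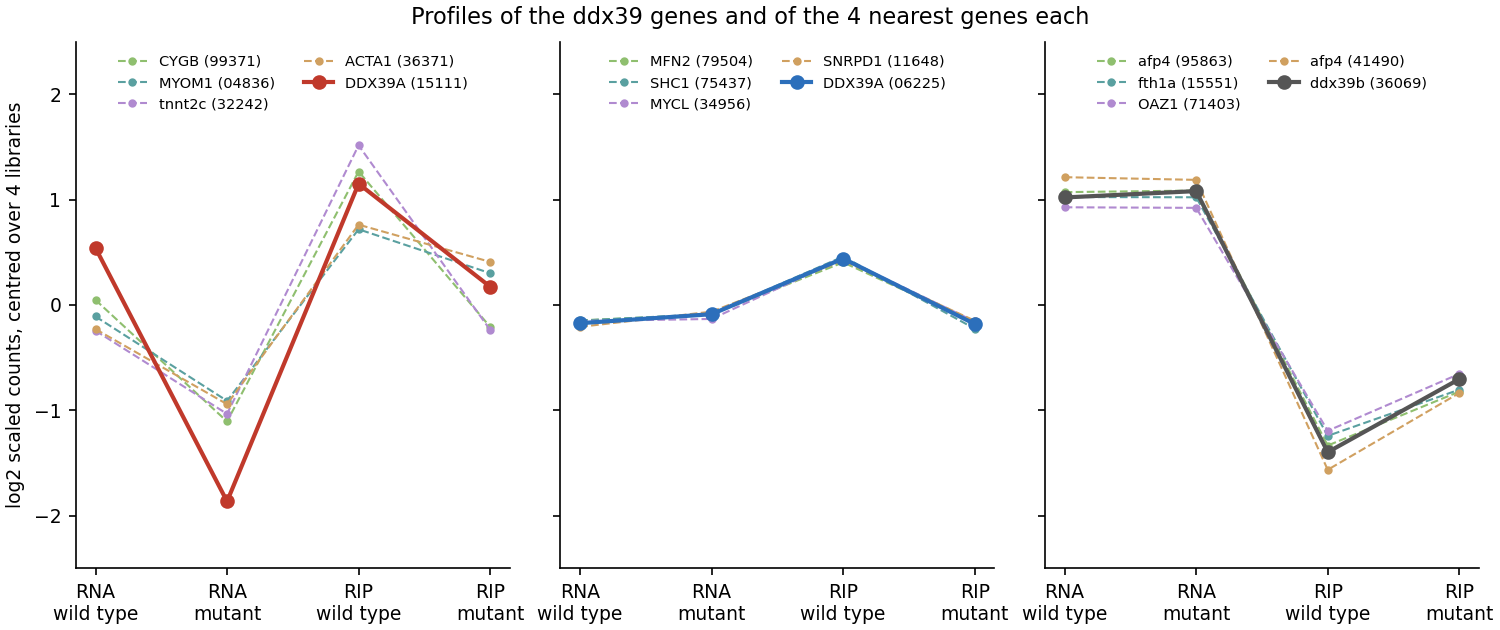
Profiles of each ddx39 gene (thick line) and of the 4 named genes nearest to it (dashed), as log2 TMM-scaled counts centred over the 4 libraries. Numbers in brackets are the last digits of the gene ID, and lines only join the points of 1 gene. The profile of ENSDARG00000015111 drops to -1.87 in mutant RNA-seq, farther than its nearest genes, while the other members run close to theirs.

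Calls among genes that act with the ddx39 proteins were counted in RNA-seq against the shares over all genes, 2.16% higher and 2.6% lower. None of 6 THO complex genes, 11 export adaptors and TREX partners, or 9 genes of the exon junction complex and its splicing partners was called. Their median log2 ratios were 0.08, 0.13 and 0.12, against -0.0022 over all genes compared. The THO scaffold gene THOC2 had 2511 and 2471 counts, and THOC1 had 689 and 736. The adaptor gene alyref had 5732 and 10175 counts, a ratio of 1.77 (1.72 to 1.83) that stayed under the size rule, and CHTOP, another adaptor, had 1959 and 2239. The acinus gene acin1a had 4401 and 4284 counts, and SF3B1, a core protein of the U2 snRNP, 4207 and 3814. Of 31 other DEAD-box helicase genes, 1 was called, ddx19a (ENSDARG00000044325), of the family of nuclear pore helicases that release exported mRNA, at 2.66-fold higher (1.59 to 4.63) from 21 and 56 counts. A gene with the symbol DDX19A (ENSDARG00000005699), with far more counts (1674 and 1763), had a ratio of 1.05 (0.983 to 1.12) and was not called. The median of the 31 helicase genes was 0.14. With 1 call among 57 genes over the 4 lists, the count was not above the share over all genes. Their most abundant members, the translation initiation helicase eif4a1a (9384 and 10648 counts) and ddx3xb (7803 and 6900 counts), were not called.

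In RIP-seq the same lists held calls in either direction, where 8.37% of all genes were called higher and 5.3% lower. With 1 to 3 calls per list, the counts are given as values only. With the mutant label, THOC2 was 2.42-fold higher (1.96 to 2.98), the 1 call of 6 THO genes. Among 11 export adaptors and TREX partners, zc3h11a was 4.6-fold higher (3.38 to 6.36) and NXT2, the partner of the export receptor, 7.34-fold higher (1.02 to 322) from 1 and 9 counts. The acinus genes acin1a and acin1b, of the exon junction list, were 2.41-fold (2.01 to 2.89) and 2.39-fold higher (1.80 to 3.20). Of 30 other DEAD-box helicase genes, none was called higher and 3 were called lower: DDX1 (2.56-fold, 1.51 to 4.47), DDX21 and DDX24 (2.15-fold, 1.67 to 2.79). The list medians were 0.04, 0.07, 0.14 and -0.0044 in the order given, against -0.05 over all genes.

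RIP-seq over RNA-seq gave the DEAD-box list a median log2 ratio of 0.25 under the wild-type label and 0.29 under the mutant one, against -0.24 and -0.25 over all genes. With the wild-type label, 7 of its 31 genes were called higher and 1 lower, against 9.01% and 14.1% of all genes. With the mutant label, 4 were higher and 1 lower, against 13.8% and 16.2% of all genes, so the number higher was near the share over all genes. The export adaptors and TREX partners had medians on the other side of all genes, at -0.65 and -0.62. With the wild-type label, 3 of 11 genes were called lower and 0 higher. With the mutant label, 4 were lower and 2 higher. In the exon junction list the medians were -0.47 and 0.0035, and in the THO complex they were -0.18 and -0.10. DDX21 was among the higher under both labels, at 6.56-fold (6.06 to 7.10) and 2.72-fold (2.45 to 3.02), and eif4a1b was the lower 1 under both, at 2.06-fold (1.64 to 2.63) and 3.35-fold (2.58 to 4.42). By sign alone, ddx39b (5.38-fold and 3.43-fold lower) lay with eif4a1b, and ENSDARG00000015111 with the mutant label lay with DDX21. Both helicases were named after their values were seen, so a shared sign follows from the choice. In wild-type and mutant RNA-seq DDX21 had 2352 and 2350 counts, where ENSDARG00000015111 had 3742 and 706. With total-count scaling the medians of the DEAD-box list were -1.58 and -1.50.

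Genes beside the ddx39 genes were looked up in a RefSeq gene table of the assembly GRCz12tu, used only for the order of genes. That table names the DDX39A genes ddx39aa and ddx39ab and does not tie them to the gene IDs of the files. Of 12 neighbours, 2 on each side of the 3 genes, 7 matched 1 gene ID. Beside ddx39b, gtf2h4 had 370 and 360 counts in wild-type and mutant RNA-seq, polr1h 94 and 102, and vars2 166 and 193, none of them called. Beside ddx39aa, zgc:111983 had 354 and 323 counts and was not called, and evi5l had 6 and 17, a ratio of 2.83 (1.06 to 8.76) that was called. Beside ddx39ab, si:ch211-106h11.3 had 5 and 14 counts and was not called, and si:ch211-106h11.1 had 0 and 2, below the expression filter. Of the 6 neighbours tested in RNA-seq, 1 was called higher and none lower, where 2.16% and 2.6% of all genes were. So few genes at these shares cannot set the neighbours apart from other genes.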

How the data were processed

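The authors deposited unnormalized counts of uniquely aligned reads for each Ensembl gene. The submitters' processing notes name HTSeq 0.6.1p1, TopHat2 2.2.1, Bowtie2 2.2.3, FastQC 0.11.5 and bcl2fastq, and the genome build GRCz10. Neither strand setting nor annotation release was stated, and reads of overlapping or antisense genes therefore cannot be separated. The 5 summary rows were kept out. A table of gene names gave symbols to 26121 of the 31953 gene IDs.

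TMM factors (edgeR 4.0.16, R 4.3.3) were computed within each pair of libraries. Genes reaching a CPM of 1 in one of them or both were compared, as the scaled ratio and its 95% Clopper-Pearson interval conditional on the summed count. Genes were called at 2-fold or more with an interval excluding equality. Log2 ratios used a prior count of 0.5. Shares have exact binomial intervals, and changes of ratios between genes have exact conditional odds-ratio intervals. With 1 library per group no p-value was computed. For the same reason intervals cover counting error only. Reads carry no molecular identifiers, so copies of a molecule cannot be told from separate molecules, and the intervals do not cover this. The ratio and interval code was tested on simulated Poisson counts with no added spread between libraries. This checked the code only and cannot show how well the intervals cover these data. Computations used Python 3.11.15 and scipy 1.17.1.

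Alternatives were DESeq2 1.42.0 size factors, total counts with and without the 5 leading RIP-seq features, upper-quartile factors, other expression filters, other size rules and a prior count of 2. Named genes were the ddx39 genes, the 4 named genes nearest in profile, genome neighbours, and per list up to 4 called and the 2 most abundant members in RNA-seq; list members called in RIP-seq were named after their values were seen. The members and lists were chosen with earlier results of these data known. A planned comparison per coding length was not run for want of lengths.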

Additional observations from a re-analysis of the deposited data

Results flagged for a closer look

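ENSDARG00000006225, the DDX39A gene that was not lower in mutant RNA-seq, had ratios on opposite sides of 1 under the same contrast. Mutant over wild type, its ratio was 1.06 in RNA-seq and 0.654 in RIP-seq. RIP-seq over RNA-seq, its ratio was 1.53 under the wild-type label and 0.945 under the mutant one. With 1 library in each group neither difference was tested, and both pairs of ratios use the same 4 counts (2242, 2382, 191 and 153). The interval of the ratio with the mutant label (0.797 to 1.11) includes equality, and with total-count scaling the gene was lower in RIP-seq under both labels.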

How the results depend on the processing

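Of 48 values of the ddx39 genes under other scalings (3 genes, 4 pairs, 4 scalings), 42 kept both direction and call. The expression filters could not move a gene that passes them, and the size rules could not turn a direction. The direction turned in 3: with total counts the RIP-seq over RNA-seq ratios with the wild-type label were 0.43 for ENSDARG00000006225 and 0.429 for ENSDARG00000015111, both then called lower, and with upper-quartile factors the ratio of ENSDARG00000006225 with the mutant label was 1.05. The call changed in 5, the 2 with total counts and the wild-type label included. With total counts and the mutant label, ENSDARG00000006225 was called (0.273) and ENSDARG00000015111 was not (1.2). With total counts without the leading RIP-seq features, ENSDARG00000015111 was called between the RIP-seq libraries (0.439). Apart from the scalings, ddx39b was not called with the mutant label under a 4-fold rule (0.291).

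Numbers of all genes called higher and lower moved by over 1.5 times as follows. In RNA-seq they were 114 and 194 with a CPM of at least 5, 99 and 114 at 4-fold, and 43 and 110 with the whole interval beyond 2-fold. Between RIP-seq libraries they were 564 and 367 at 4-fold and 440 and 74 with the whole interval beyond 2-fold, and 1333 were lower without the leading features. For RIP-seq over RNA-seq they were 310 and 13429 (wild-type label) and 500 and 12946 (mutant label) with total counts, 758 and 1223, and 1221 and 1348, at 4-fold, and 590 and 724, and 1329 and 906, with the whole interval beyond 2-fold. Shares and ratios within a library involve no scaling. Of the 4 nearest genes of each member, at least 3 were shared under the other scaling and prior count. No paired analysis was possible because each group held 1 library. Depth limits ddx39b in RIP-seq, where 7 and 14 counts leave a ratio between 0.616 and 4.78.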
